A study of Mus musculus with 2 samples.

Results

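The genes described are the core and linker histone genes of the mouse, found as all protein-coding genes of the RefSeq table on mm10 (GRCm38.p6) whose symbol begins with Hist1h to Hist4h, H1f, H2ac, H2bc, H3c or H4c. The rule gave 67 of the 21535 protein-coding genes that could be placed with a strand. They comprised 10 H1, 17 H2A, 16 H2B, 12 H3 and 12 H4 genes. All were measured in E14TG2a.4, a male embryonic stem cell line of mouse strain 129/Ola with a labelled age of 3.5 days, in 2 biological replicates that form the only group. Chromatin immunoprecipitation and sequencing (ChIP-seq) against monomethylated lysine 4 of histone H3 (H3K4me1) had been reduced by the authors to peak lists. No other condition and no control library was analysed here, so the histone genes are set against all protein-coding genes of the same cells.

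Replication-dependent histone genes are made in bulk while DNA is copied, to package the new strands. Most are short, have no introns, lie in clusters and give mRNAs that end in a stem-loop in place of a poly(A) tail. H3K4me1 is a mark of enhancers and of the flanks of promoters, and promoter centres often lack it. H2A, H2B, H3 and H4 form the nucleosome core and H1 binds the linker DNA. A few genes caught by the rule belong to other programmes. H1f0 and H1f10 encode H1 proteins made outside S phase. H1f6, H1f7, H2ac1 and H2bc1 encode testis histones, and H1f8 encodes the oocyte H1.

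Of the 67 genes, 63 fell into 3 clusters of genes under 500 kb apart. The chromosome 3 cluster (chr3:96219885-96270192) held 10 genes in 50308 bp, from H2ac21 to H2bc18. The first chromosome 13 cluster (chr13:21715711-22043658) held 22 genes, and the second (chr13:23531044-23934913) held 31. These 2 were 1487385 bp apart. H1f10 and H1f8 on chromosome 6 and H1f0 and H1f7 on chromosome 15 lay outside.

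The 250 bases before the transcription start site (TSS) are shown for 6 genes around which the results turn, from the RefSeq promoter table of GRCm38.p6, read 5′ to 3′ on the strand of the gene. For H2bc22 the start of that table lies a few bases downstream of chr13:21787483, the TSS used for coverage, so its printed stretch runs just past that TSS. H2bc22, H3c14, H4c4 and H1f5 stood at or near the top of their classes in H3K4me1 coverage. H2bc23 had no mm10 peak, and H2bc1 is the germ-cell gene of its class. Capitals mark TATAAA (the TATA box), CCAAT (the CCAAT box), ATTTGCAT (the octamer) and AAACACA (the AC box of H1 genes), on either strand. On the forward strand lie H2bc22 at chr13:21787238-21787487, H3c14 at chr3:96246435-96246684 and H4c4 at chr13:23581318-23581567, and on the reverse strand H1f5 at chr13:21780626-21780875, H2bc23 at chr13:21810200-21810449 and H2bc1 at chr13:23934157-23934406.
H2bc22: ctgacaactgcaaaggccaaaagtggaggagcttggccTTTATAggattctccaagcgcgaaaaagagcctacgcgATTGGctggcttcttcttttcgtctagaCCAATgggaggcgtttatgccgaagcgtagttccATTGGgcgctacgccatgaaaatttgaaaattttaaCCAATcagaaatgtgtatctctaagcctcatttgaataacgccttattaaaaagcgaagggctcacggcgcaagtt
H3c14: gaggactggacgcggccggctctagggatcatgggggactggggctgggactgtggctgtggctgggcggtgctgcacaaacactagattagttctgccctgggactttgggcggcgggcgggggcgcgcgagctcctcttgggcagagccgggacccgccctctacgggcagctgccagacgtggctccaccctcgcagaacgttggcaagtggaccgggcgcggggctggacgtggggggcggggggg
H4c4: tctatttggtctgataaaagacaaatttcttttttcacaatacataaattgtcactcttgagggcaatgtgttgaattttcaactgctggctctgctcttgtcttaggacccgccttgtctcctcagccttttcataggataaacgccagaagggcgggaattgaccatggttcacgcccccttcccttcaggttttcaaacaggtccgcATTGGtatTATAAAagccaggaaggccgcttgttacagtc
H1f5: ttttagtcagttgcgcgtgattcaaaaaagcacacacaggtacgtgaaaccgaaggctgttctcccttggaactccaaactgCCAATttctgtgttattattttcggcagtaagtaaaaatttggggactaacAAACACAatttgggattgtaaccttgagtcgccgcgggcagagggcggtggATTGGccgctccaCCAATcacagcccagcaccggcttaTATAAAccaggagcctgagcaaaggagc
H2bc23: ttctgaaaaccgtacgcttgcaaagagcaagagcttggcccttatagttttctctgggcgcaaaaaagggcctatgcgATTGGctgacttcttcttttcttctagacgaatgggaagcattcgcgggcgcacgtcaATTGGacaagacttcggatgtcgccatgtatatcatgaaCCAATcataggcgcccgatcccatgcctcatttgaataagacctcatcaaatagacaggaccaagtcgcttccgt
H2bc1: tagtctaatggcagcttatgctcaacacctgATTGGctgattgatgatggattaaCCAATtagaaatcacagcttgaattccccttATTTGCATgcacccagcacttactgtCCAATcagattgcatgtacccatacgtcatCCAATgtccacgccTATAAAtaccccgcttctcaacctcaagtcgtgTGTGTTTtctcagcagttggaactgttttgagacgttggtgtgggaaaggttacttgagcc

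Over the 300-base promoters of 62 histone genes, 63 sequences in all, CCAAT was present in 52, or 82.5%, against 38.1% of 21200 other promoters. All 17 H2A, 15 H2B and 10 H3 sequences held it, against 3 of 11 H4 and 7 of 10 H1 sequences. TATAAA was found in 34 (54.0%) of the histone sequences and 12.5% of the others. The octamer was in 13 (20.6%) against 1.60%, and all 13 were H2B (7) or H2A (6) promoters. AAACACA was in 9 (14.3%) against 6.12%, with 5 of the 9 among the 10 H1 promoters. H3c14 held none of the 4 motifs in the 250 bases shown. Its counted CCAAT therefore reaches into the 50 bases after the start, which the 300 searched bases include. The counts do not part matches before the start from those after it. Both strands were searched, and the promoters of neighbouring H2A and H2B genes read in opposite directions overlap. The same site can thus count for both genes, so the H2A and H2B counts are not of separate stretches of DNA. A match only describes letters in the window.

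H3K4me1 covered a larger share of the surroundings of the typical histone gene than of the typical gene. Coverage here means the share, in percent, of bases from 5 kb upstream to 5 kb downstream of the TSS that fell in peaks. The median histone gene had 32.1% in replicate 1 and 25.3% in replicate 2, against 22.3% and 19.9% over all genes. The median of the replicate means was 29.9% ± 4.81 for histone genes and 21.1% ± 1.72 for all genes (SD of the replicate medians, n = 2). The gap between the medians was wider in replicate 1, and 48 of 67 genes (71.6%) had more coverage in replicate 1 than in replicate 2, against 54.0% of all genes.

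Of the 67 histone genes, 52 lay above the all-gene median, where 50% of all genes lie by construction. The quartiles of the histone genes were 22.02% and 41.0%, and those of all genes 3.04% and 43.3%. Histone genes were thus seldom bare and seldom very high. The highest histone gene, H2bc22, had a mean of 65.9%, against 98.8% for the highest of all genes. Histone windows overlap, and with 1 value per set of overlapping windows, 20 sets in all, the median was 22.9%. With windows of 20 kb either way, median coverage was 27.2% and 25.7% for histone genes, against 13.995% and 13.7% for all genes, and 55 of 67 lay above the all-gene median (background 50%). In a culture measured in bulk, more cells carrying the mark and more mark per cell cannot be told apart.

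A promoter peak was called where the replicated list of the authors had a peak no farther than 2 kb from the TSS. It was found at 62 of 67 histone genes (92.5%), against 72.8% of all genes. The 5 without one were H1f8, H2bc23, H2ac23, H4c17 and H2ac24. With the 50000 strongest peaks of each list alone, neither excess remained: the median coverage was 0% for histone genes, against 1.88% for all genes, and promoter peaks were found at 27 of 67 histone genes (40.3%), against 40.4% of all genes.

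Peak height was ordinary. The peaks in the merged 5 kb windows had a median signal value, the authors' own per peak, at percentile 49.0 of all peaks in replicate 1 and 51.5 in replicate 2. Only 5.33% and 5.44% of them were among the top 10% of their list by signal.

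**Figure D1:**
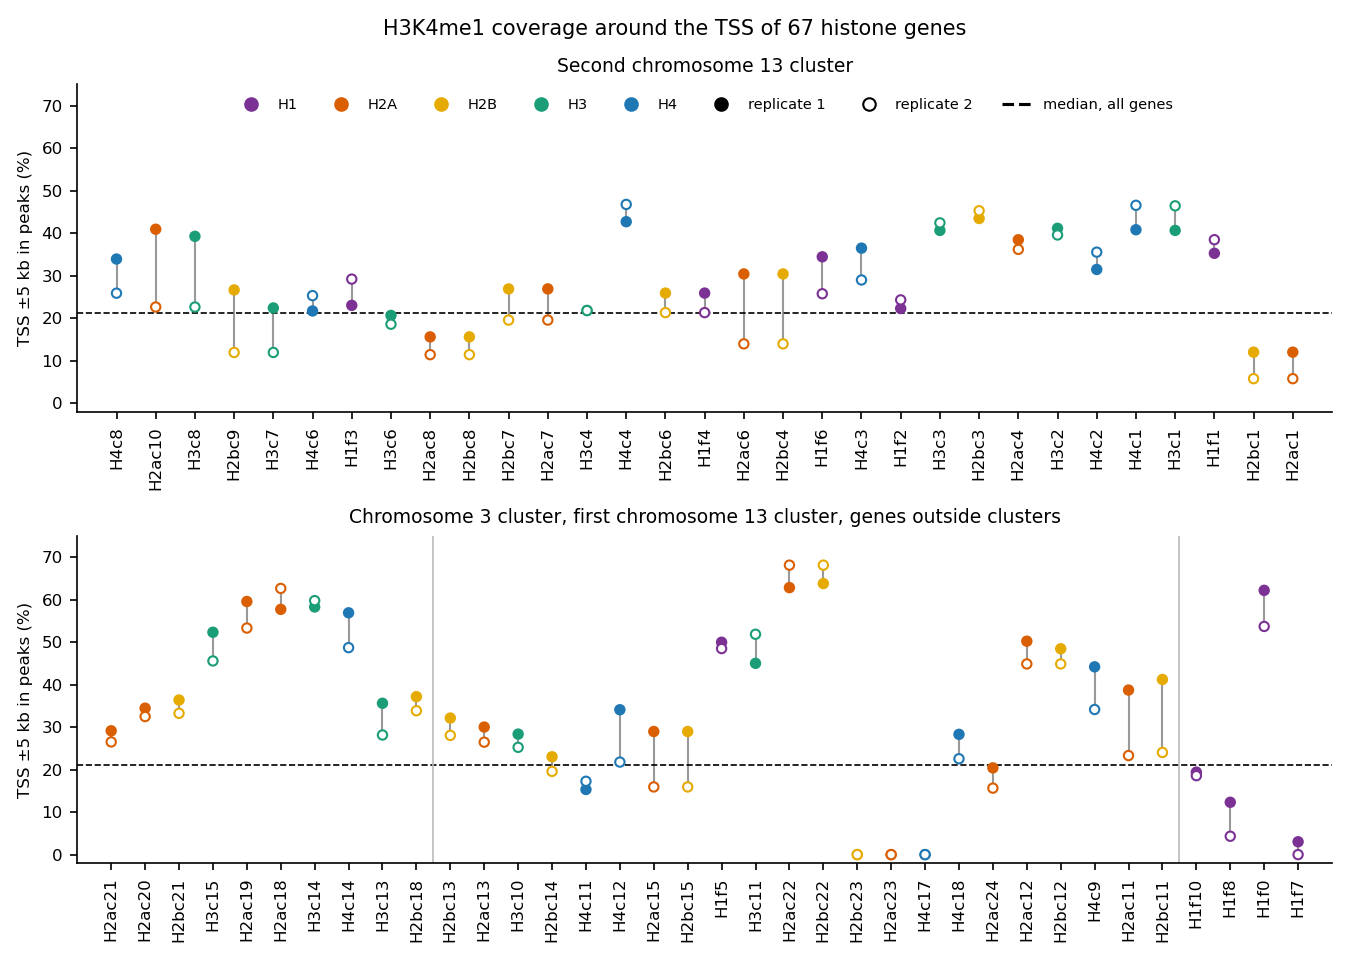
H3K4me1 coverage in percent of bases up to 5 kb from the TSS for each of 67 histone genes, in genomic order, with replicate 1 filled, replicate 2 open and colours for the classes. Grey lines part the chromosome 3 cluster, the first chromosome 13 cluster and the genes outside clusters, and the dashed line is the all-gene median of 21.1%.

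The classes overlapped widely. H3 genes had the highest median, 39.98% in replicate 1 and 33.9% in replicate 2. Their median of the replicate means was 36.1% ± 4.32 (SD of the replicate medians), and brackets give the same for the other classes. H4 genes had 34.0% and 27.5% (31.3% ± 4.64), and H2A genes 30.4% and 23.3% (28.2% ± 5.04). H1 genes (24.9% ± 0.40) and H2B genes (23.4% ± 6.53) were lowest. The replicate values of neighbours in this order overlapped. Further apart they did not always: both H3 medians lay above both of the H2A, H1 and H2B classes, in a comparison that was not tested. The classes were also spread unevenly over the clusters. H3c13, H3c14 and H3c15 lie in the chromosome 3 cluster, the most covered, with H4c14, H2bc18, H2bc21 and H2ac18 to H2ac21, but without an H1 gene. Class and cluster were not separated here. All 12 H3 genes had a promoter peak, as did 11 of 12 H4, 15 of 16 H2B, 15 of 17 H2A and 9 of 10 H1 genes. The 6 H1 genes inside clusters had a median of 28.1%. In 11 pairs, an H2A and an H2B gene read in opposite directions from nearby TSSs largely share a window. The values of these 2 classes are thus not independent.

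**Figure D2:**
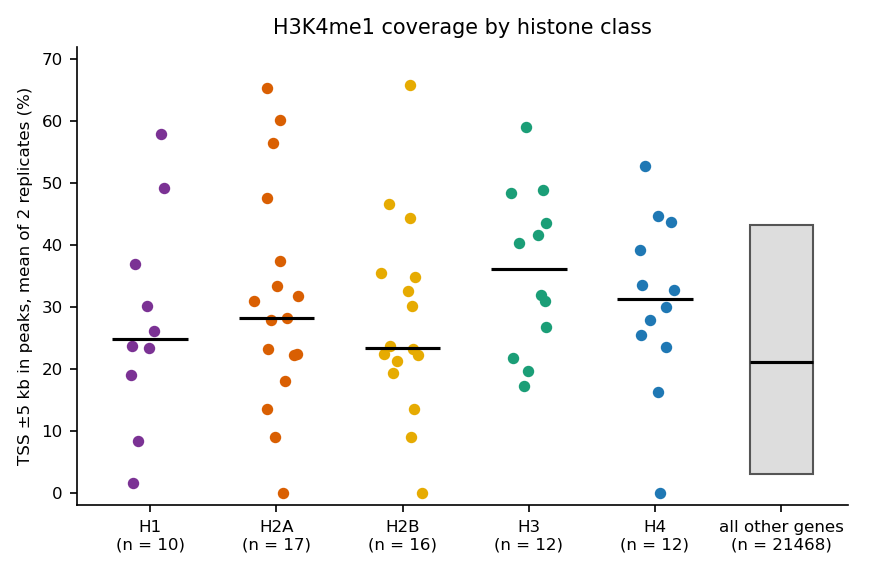
Mean coverage over 2 replicates, in percent of bases up to 5 kb from the TSS, 1 point per histone gene and a bar at each class median. The grey box spans the quartiles of the 21468 other genes, and each class has members above and below its median of 21.1%.

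Among linker histone genes, H1f0, which encodes the H1 of resting and differentiated cells, was highest at 62.2% and 53.7%. H1f5 in the first chromosome 13 cluster had 49.96% and 48.5%. H1f10 had 19.4% and 18.6%, and the germ-cell genes H1f8 and H1f7 had 12.3% and 4.32%, and 3.02% and 0%. H1f0 and H1f5 stood above every other H1 gene in both replicates. Among the core histone genes, the divergent neighbours H2ac22 and H2bc22 led with 62.8% and 68.1%, and 63.8% and 68.1%, in largely shared windows. On chromosome 3, H2ac18 had 57.7% and 62.6%, H3c14 had 58.3% and 59.8%, and H3c15 had 52.3% and 45.6%. H4c14 was the highest H4 gene with 56.9% and 48.7%, and H4c4 on chromosome 13 had 42.7% and 46.8%. Of the other genes high in their class, H2bc12 had 48.4% and 44.9%. These high genes came from all 3 clusters, and both replicates placed each above the all-gene median. At the low end, H4c11 had 15.3% and 17.2%, H3c7 22.4% and 11.96%, and H3c6 20.7% and 18.6%. H2ac21 lay at the edge of the chromosome 3 cluster with 29.1% and 26.5%, the lowest there.

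The replicates ranked the genes alike, with a Spearman rho of 0.896 across the 67 genes, which share libraries and windows. The widest disagreement was at H2ac10, with 40.95% and 22.65%. H2bc11 (41.2% and 24.03%), H3c8 (39.3% and 22.65%), H2ac6 and H2bc4 (30.4% and 13.98% each) followed, all higher in replicate 1.

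The chromosome 3 cluster was the most covered. With overlapping windows counted once, 42.5% and 39.2% of 45128 bp lay in peaks, a mean of 40.8% ± 2.28. The first chromosome 13 cluster had 29.5% and 26.02% (27.8% ± 2.49) and the second 28.2% and 23.9% (26.1% ± 3.04). Both replicates of the chromosome 3 cluster lay above both of either chromosome 13 cluster, and the 2 chromosome 13 clusters overlapped. Parts of a cluster also differed. In the first chromosome 13 cluster, 5 genes from H2ac12 to H2bc11 had 39.4% ± 5.97 and the 17 genes before them 25.2% ± 1.72. In the second, the 29 genes from H4c8 to H1f1 had 27.5% ± 2.95, and H2bc1 with H2ac1, 169312 bp away, had 8.67% ± 4.29.

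**Figure D3:**
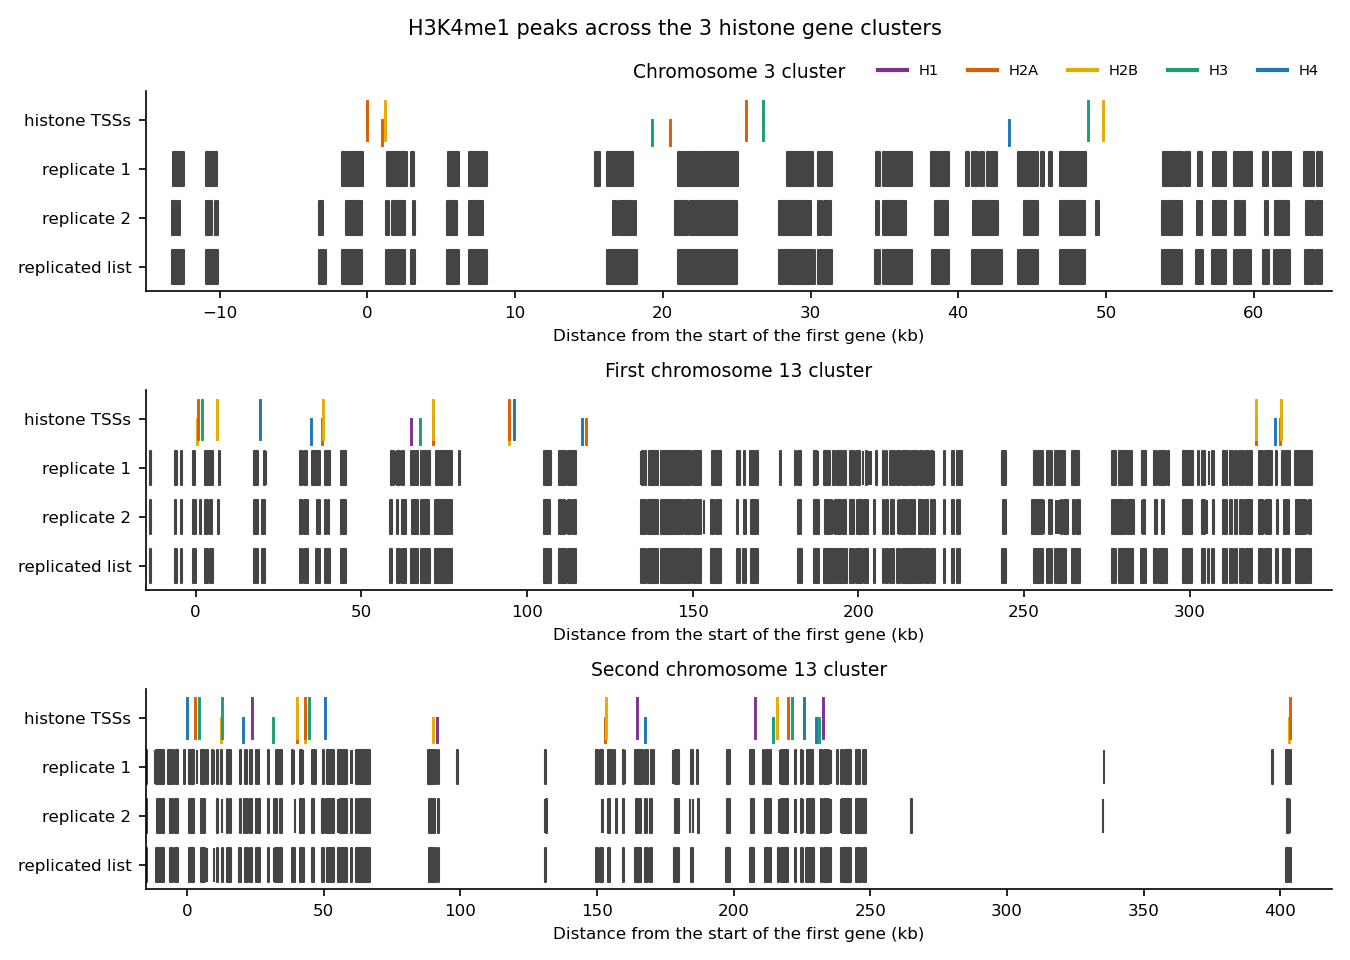
H3K4me1 peaks (dark bars) of replicate 1, replicate 2 and the replicated list across each cluster, by distance from the start of its first gene in kb, with histone TSSs coloured by class and raised for the forward strand. Most TSSs stand between peaks, and the first chromosome 13 cluster has 25331 bp without a peak around H2bc23, H2ac23 and H4c17.

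The clusters lay in unlike surroundings. The 32 other protein-coding genes inside or within 500 kb of the chromosome 3 cluster had a median coverage of 46.0%. The 38 around the first chromosome 13 cluster had a median of 0%, and 25 of them were olfactory or vomeronasal receptor genes. The 23 around the second also had a median of 0%, with 10 receptor genes. The median histone gene had 42.2% in the chromosome 3 cluster, 28.1% in the first chromosome 13 cluster and 23.6% in the second. So the chromosome 13 histone genes stood above their surroundings and those of chromosome 3 did not. Inside the second cluster, an uncovered stretch of 69789 bp (chr13:23796213-23866001) and one of 61449 bp held no histone TSS. The 6 other genes inside its span, Hfe (an iron regulator), Trim38 and 4 Slc17a transporter genes, had a median of 0.925%. Inside the span of the first cluster, Zfp184, Pom121l2 and Prss16 had a median of 31.1%, which was not below the 28.1% of its histone genes.

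Peaks flanked histone TSSs and left the TSS itself bare. No histone gene had its TSS base inside a peak in both replicates, against 13.4% of all genes. Within 100 bp of the TSS, 4.68% of bases in replicate 1 and 3.64% in replicate 2 lay in peaks at histone genes, against 20.0% and 15.4% at other genes. A peak within 2 kb on each side of an uncovered TSS was present in both replicates at 41 of 67 (61.2%), against 40.9% of all genes. Downstream, the highest 100 bp bins reached 47.1% and 45.5% for histone genes, in the bin ending 1600 bp from the TSS, against 45.5% and 40.8% for other genes, in the bin ending at 1200 bp. Upstream, coverage between 2 kb and 5 kb averaged 34.1% and 28.9% for histone genes, against 18.5% and 17.996% for other genes. Over the same distances downstream it averaged 31.6% and 25.9% for histone genes, against 26.6% and 26.4% for other genes, so replicate 2 was no higher there. These stretches often hold other histone genes.

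**Figure D4:**
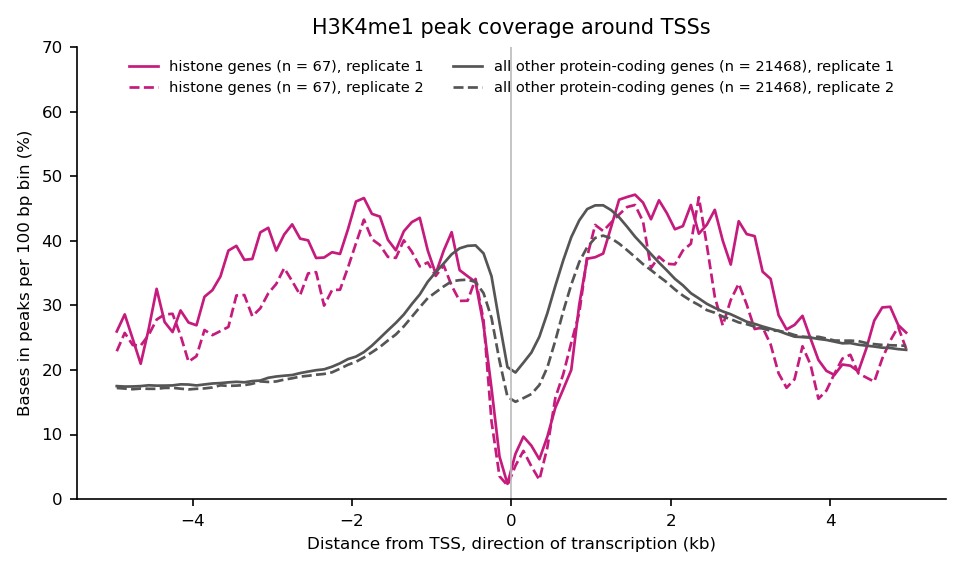
Percent of bases in H3K4me1 peaks in 100 bp bins around the TSS, for 67 histone genes (pink) and 21468 other protein-coding genes (grey), replicate 1 solid and replicate 2 dashed. Histone genes dip to 4.68% and 3.64% within 100 bp of the TSS, against 20.0% and 15.4% for other genes.

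The uncovered gap between the flanking peaks was wide. Its median was 1661 bp over 44 histone genes in replicate 1 and 1719 bp over 46 in replicate 2, against 952 bp and 1119 bp at other genes. By class, the gap was 2616 bp and 1906 bp at H3 genes, 1481 bp and 1718 bp at H4 genes, 1661 bp and 1678 bp at H2A genes, and 1661 bp and 1737 bp at H2B genes. At H1 genes it was 1199 bp and 1124 bp, the narrowest of the 5 classes in both replicates. Gaps were counted per gene, and neighbouring genes can share 1 gap, so the medians are not over separate gaps. In replicate 1, a single gap of 1661 bp on chromosome 3 was counted for H2ac21, H2ac20 and H2bc21. The bare TSS was most complete at H4 genes, with 0% within 100 bp in both replicates and 76.7% and 74.3% in the highest downstream bin.

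The sequence around many histone TSSs recurs elsewhere in the genome. Within 1 kb of the TSS, a median of 76.3% of 32-mers at histone genes were unique on mm9, with 98.9% at H1, 86.8% at H4, 74.8% at H3, 67.5% at H2B and 66.8% at H2A genes. Among the 12 histone genes with at least 90% unique 32-mers there, all of them H1 or H4 genes except H2bc6, 9 were flanked in each replicate. Their median gap was 800.0 bp and 1124 bp, against 952 bp and 1119 bp at other genes. Coverage within 100 bp of their TSSs was 10.6% and 8.25%. How the authors treated reads that match several places is not given in the sources used here, and the part of uniqueness in the gap was not tested.

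**Figure D5:**
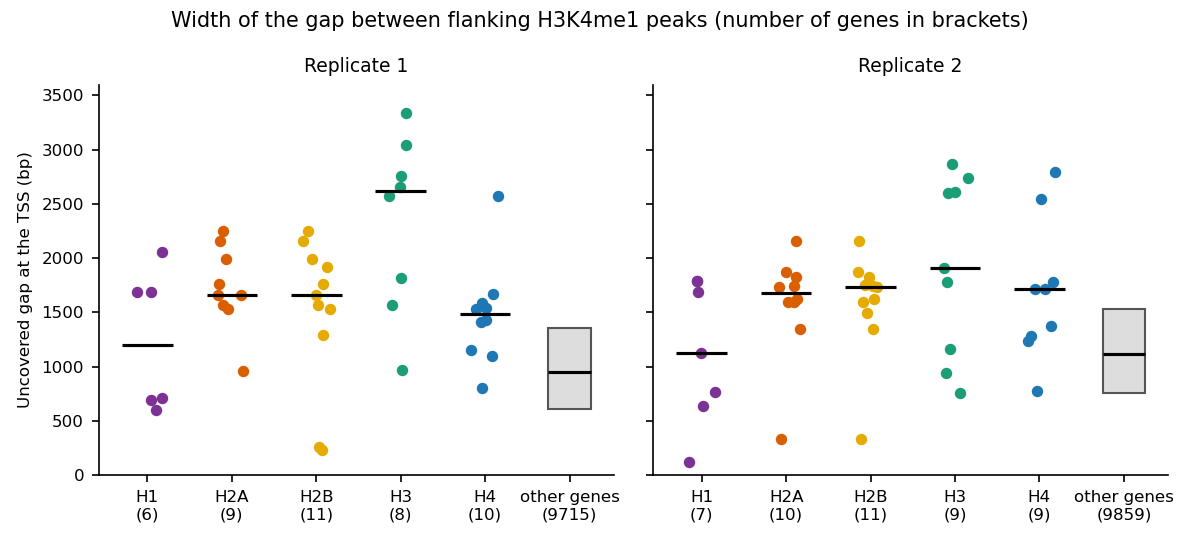
Width in bp of the uncovered gap around the TSS at genes with a peak within 2 kb on each side, per histone gene and class, with bars at medians, for both replicates. Neighbouring genes can share a gap, which is then drawn for each of them. Grey boxes span the quartiles of other genes, whose medians are 952 bp and 1119 bp, and the H3 medians of 2616 bp and 1906 bp are the highest.

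Many of the genes lay in divergent pairs. There were 12 pairs with TSSs under 1 kb apart, 11 of them H2A with H2B, at 164 to 608 bp (median 210.5 bp). In 10 of the 12, a single uncovered gap held both TSSs in both replicates, or 83.3%, against 87.1% of all 744 divergent pairs of protein-coding genes under 1 kb apart, so the share was near the background. The 10 include H2bc23 with H2ac23, whose windows had no peak in the mm10 replicate lists. The H2bc22 promoter printed above spans the whole 235 bp between its TSS and that of H2ac22, and that pair had the highest coverage, 66.2% ± 3.65. H2ac8 with H2bc8 had 13.3% ± 2.903. The exceptions to the single gap were H2bc9 with H3c7, where 59.4% and 47.3% of the bases between the TSSs were covered, and H2bc1 with H2ac1, with 20.6% and 0%.

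The replicated list placed a peak over the TSS of 5 of 67 histone genes (7.46%), H3c7, H1f6, H2bc1, H2ac1 and H1f7, against 18.9% of all genes. In the replicate lists, the TSS base of H1f6 and H2ac1 lay in a peak in replicate 1 alone. That of H3c7, H2bc1 and H1f7 lay in a peak in neither replicate. H1f7 had 0% in replicate 2, and only 12.6% of the replicated list was weaker than its peak. All except H3c7 are germ-cell histone genes. This grouping was chosen after the values were seen. The 5 germ-cell genes had low coverage, a median of 8.91%, with H2bc1 and H2ac1 at 12.03% and 5.79% each, in largely shared windows. H1f6, which lies among somatic histone genes, was the exception with 34.5% and 25.8%.

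The 3 neighbouring genes H2bc23, H2ac23 and H4c17 (chr13:21806412-21812150) had 0% in both replicates of the mm10 lists. On the mm9 lists, with their broader peaks, each had 22% in both replicates. No covered base in the window was found at 4.48% of histone genes, against 21.7% of all genes. They lay in an uncovered stretch of 25331 bp. Only 1.78% of the 32-mers in the windows of these 3 genes were unique on mm9, where the median histone gene had 88.7%. The H2bc23 promoter printed above was the same in 300 of 300 bases as that of H4bc24, listed earlier as Hist1h2br, in the same cluster. The nearby genes H4c18 and H2ac24, with 33.1% and 22.4% unique 32-mers, also had TSSs in an uncovered stretch, of 19376 bp. Their windows had 28.3% and 22.6%, and 20.4% and 15.6%, in peaks on mm10, and 65.4% and 71.4%, and 51.6% and 57.6%, on mm9. In this segment, absence of a peak in the mm10 lists and loss of reads that match several places cannot be told apart.

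The gene bodies were mostly bare as well. In 51 of 67 histone genes (76.1%), the gene record held no covered base in both replicates, against 21.2% of all genes. Histone records are short, and among the 1540 records under 1000 bp the share was 93.2%. The 1482 other short genes had a median coverage of 0% in the 5 kb windows.

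H2bc6 was measured at the 5′ end of its record, with 25.9% and 21.3%. At its other listed start, near the H4c4 gene, it had 52.1% and 50.6%. In 4 further genes only the older symbol fits the rule: H4f16 had 34.8% ± 2.84, H2aw 28.6% ± 4.20, H2bu2 23.4% ± 2.47 and H4bc24 15.3% ± 3.37, and all except H4bc24 had a promoter peak.

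Genes that work with the histone genes all had a promoter peak, which 72.8% of all genes have. All 10 replacement histone genes, most of which are made outside S phase, carried promoter peaks, and their median coverage was 43.5%. Macroh2a1, which encodes a large H2A variant, led with 71.9% and 78.2%, followed by its relative Macroh2a2 with 63.6% and 68.9%. H2bu2, with 25.2% and 21.7%, and H2az1, the common H2A.Z gene, with 22.3% and 26.4%, were lowest. H2bu2 is also among the genes above that fit the rule by their older symbol alone, so it stands in both sets. Promoter peaks were found at all 16 genes of histone transcription and 3′ end processing, whose median was 43.2%. Of these, E2f1, a cell-cycle transcription factor, had 79.7% and 81.3%, and Sympk, a scaffold of the cleavage complex, 66.4% and 64.4%. Slbp, the stem-loop binding protein, and Npat, the coactivator of histone genes, are added for their role, and had 49.96% and 54.6%, and 31.7% and 37.8%. Eri1, an exonuclease that acts on histone mRNA, had 26.04% and 23.3%, and Cstf2, a 3′ end processing factor, was lowest with 13.4% and 6.02%. All 16 genes of the histone chaperone list also had one, and their median was 43.1%. Chaf1a, a subunit of the chromatin assembly factor, had 58.5% and 60.5%, and Daxx, an H3.3 chaperone, 60.1% and 54.5%. Asf1b, an H3 and H4 chaperone, had 26.04% and 19.3%, and Atrx, a chromatin remodeller, 20.1% and 16.4%. The medians of these 3 lists lay above the 29.9% of the histone genes and the 21.1% of all genes. All 10 embryonic stem cell markers carried promoter peaks, against the 72.8% of all genes, so their presence says little on the label. Their median coverage was 48.8%, from Tfcp2l1 (78.1% and 79.8%) and Fgf4 (74.7% and 62.2%) to Sox2 (36.9% and 30.7%) and Esrrb (23.2% and 22.7%), and none was at 0%. Esrrb lay close to the all-gene median.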

How the data were processed

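H3K4me1 ChIP-seq was analysed in 2 biological replicates of E14TG2a.4 cells, grouped by the labels. The authors deposited, per the read-me lists, narrowPeak files on mm10 (replicate 1, replicate 2, pooled, replicated) and broadPeak files on mm9. Peaks of the deposited mm10 lists come with signal, −log10 p and −log10 q. Those of the deposited mm9 lists come with signal, p-value and q-value. The sources used here name neither aligner nor peak caller. Per the read-me lists, both replicate lists also drew on 1 shared file, and the replicate 2 and pooled lists on 1 more, with its role not stated. Depth is unknown, since the lists hold no read counts. Whether the replicates were separate cultures is not stated beyond the word biological, and SDs describe these 2 libraries. The lists hold 313453 peaks for replicate 1, 325226 for replicate 2 and 226060 replicated peaks.

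Each gene was placed by the 5′ end of its record in RefSeq GRCm38.p6, with strand from the RefSeq promoter table (17492 genes) or GENCODE vM1 (4043); 352 of 21887 genes had none. In all, 5 of the histone genes took the GENCODE strand. Coverage was the percent of a window in peaks of a list, per replicate. Uniqueness was the share of 32-mers found once in the mm9 genome (NCBIM37), around the mm9 TSSs of all 67 genes; no coordinate was converted. Genes named were, by rule, those with the highest and lowest coverage in each class and cluster, those without a promoter peak, and members outside clusters; any other gene was picked with its values known. The members and lists were chosen with earlier results of these data known. With 1 group and genes that share libraries, no test and no p-value was computed. The coverage functions were tested on simulated peaks. Alternatives were other lists, windows, filters and cluster definitions and leaving out a replicate; 3 more, on membership and on the start of H2bc6, were chosen after seeing the data. Python 3.11.15, numpy 2.4.6, pandas 2.3.3 and matplotlib 3.10.9 were used.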

Additional observations from a re-analysis of the deposited data

How the results depend on the processing

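The coverage values depend on which peak list is used, so they rank genes within a list and are no absolute level. With the 50000 strongest peaks, the pooled list and the mm9 lists, in that order, the median over histone genes was 0%, 36.3% and 54.9% in 5 kb windows and 6.96%, 31.9% and 52.4% in 20 kb windows; over all genes the mm9 lists gave 35.0% and 23%. By class the same 3 gave 5.24%, 33.1% and 45.4% for H1, 0%, 36.3% and 54.9% for H2A, 0%, 35.3% and 50.9% for H2B, 14.3%, 43.7% and 58.7% for H3, and 3.51%, 42.3% and 57.9% for H4. By cluster they gave 14.6%, 48.4% and 60.9% for chromosome 3, 5.59%, 35.4% and 51.4% for the first chromosome 13 cluster, and 6.84%, 33.8% and 47.9% for the second. Chromosome 3 stayed highest of the 3 clusters and H3 highest of the 5 classes under these lists. Within 100 bp of the TSS they gave 0.567%, 6.48% and 12.8%, and in the highest downstream bin 13.5%, 55.2% and 70.4%. Bins of 200 bp gave 5.49% at the TSS, over a wider stretch by construction. Wider windows gave lower values: 23.4% with 10 kb in place of 5 kb, 23.8% with 50 kb in place of 20 kb, 21.7% for H1 and 31.0% for H3 with 20 kb, and 31.9%, 20.8% and 20.5% for the 3 clusters with merged 20 kb windows. Over the whole span, the chromosome 3 and second chromosome 13 clusters had 38.5% and 12.7%. With 1 value per set of overlapping windows the median was 22.9%, near the 21.1% of all genes. With the 50000 strongest peaks the histone median fell below that of all genes (1.88%), and 27 genes had a promoter peak. Counting only peaks over the TSS itself gave 5 genes. The causes were not tested. Leaving out each replicate in turn gave 25.3% to 32.1% for the 5 kb median, 25.7% to 27.2% for the 20 kb median and 61 to 63 promoter peaks. A plain mean of 2 replicates moves by less than their SD by construction, so such moves say nothing on stability. The medians are taken over per-gene means, so that bound need not hold for them. Without replicate 2 the 20 kb median rose from 26.1% to 27.2%, beyond the SD of 1.06 between replicates. A −log10 q of at least 2, the older symbols, leaving out the genes with under 50% unique sequence and the second start of H2bc6 moved none beyond the spread between replicates. Joining genes under 100 kb apart splits both chromosome 13 clusters, whose parts are given above, and joining them under 1 Mb apart changed no cluster. No paired analysis was possible because there is 1 group. Depth is unknown, so a missing peak does not show that the mark is absent.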
